A study of Homo sapiens with 90 samples.

Results

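Fenbuconazole, a triazole fungicide, was set against 2,4-D, a chlorophenoxy herbicide, in HepaRG cells exposed for 24 h to 10 µM of either chemical. HepaRG is a human hepatic line, a single line of tumour origin, whose differentiated cultures hold hepatocyte-like and biliary-like cells. The comparison rests on 6 of 90 array columns, 3 with fenbuconazole and 3 with 2,4-D. They were chosen by chemical and concentration, and not by any measured value. The other columns hold lower concentrations of both chemicals, 9 concentrations of imazalil (an imidazole fungicide) and 3 DMSO arrays, which carry the solvent that the treated wells also received and which were normalized once with each chemical. Each value below is a log2 array signal from which the mean of the 3 DMSO arrays of the same normalization was subtracted, so that 0 is the level of solvent-treated cells and 1 is a doubling. The replicates carry the codes P1, P2 and P3 in the sample labels, and the methods describe the replicates as independent batches of cells. The medians of the 6 arrays lay between 2.83 and 2.93, and the correlations among them and the 3 DMSO arrays between 0.989 and 0.993 over all probe sets.

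Azole fungicides act on fungi by blocking the P450 enzyme that removes a methyl group from lanosterol, and the human form of that enzyme, CYP51A1, stands in the path to cholesterol. When sterols run low in a cell, SREBP transcription factors move to the nucleus and switch on the genes of sterol and fatty acid synthesis. Liver cells also answer foreign chemicals through the receptors CAR and PXR, whose classical targets are CYP2B6 and CYP3A4, and through the aryl hydrocarbon receptor (AHR), whose classical targets are CYP1A1 and CYP1A2. 2,4-D kills plants by mimicking the plant hormone auxin.

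At 10 µM, genes of xenobiotic metabolism, of cholesterol synthesis and of fatty acid synthesis were higher with fenbuconazole than with 2,4-D, and INHBE, ADH1A and CYP2E1 were among the genes that were lower. A gene is called here when its probe set passes a false discovery rate of 0.05 in limma, with p-values adjusted over all 54715 probe sets. Of 19774 genes, 92 were called higher (0.465% of those tested) and 38 were called lower (0.192%). Without the P code as a block the counts were 73 higher and 24 lower, and all of these genes were also called with the block. The subtraction of DMSO matters most for the lower genes. Without it 105 genes were higher and 260 lower, and the higher genes made up 28.8% of the calls in place of 70.8%. In 124 of the 130 called genes the 3 fenbuconazole arrays and the 3 2,4-D arrays did not overlap, against 8.94% of all genes. The called genes were selected on these same arrays, which favours such a separation. The difference was larger than 1 on the log2 scale, in either direction, in 22 genes, and the largest over the probe sets that represent genes was 2.15.

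**Figure D1:**
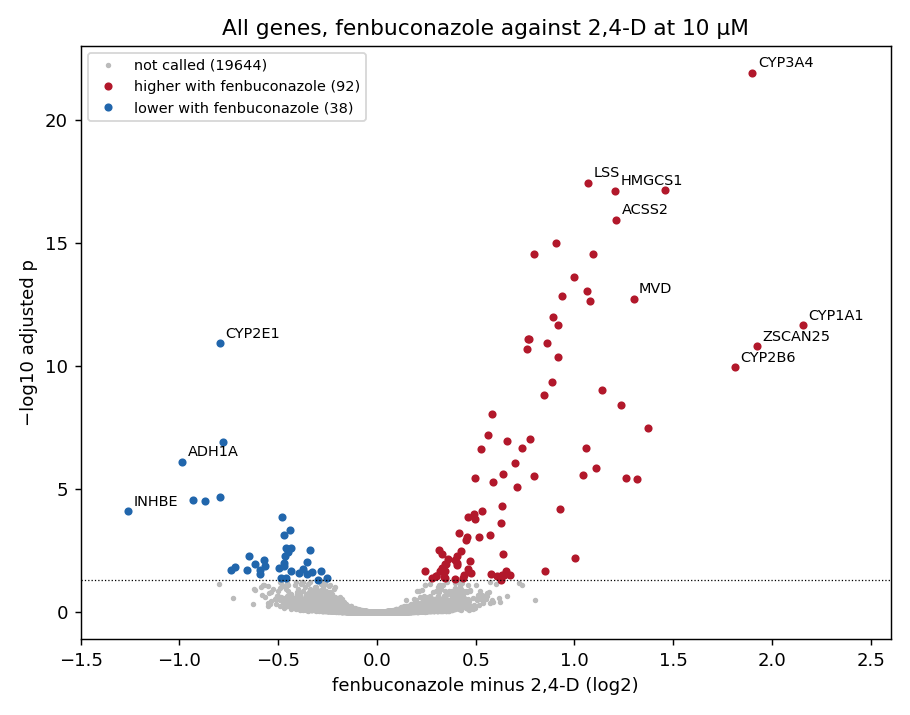
Each point is a gene, placed by its difference between fenbuconazole and 2,4-D at 10 µM (log2, horizontal) and by −log10 of its adjusted p (vertical), and the dotted line marks an adjusted p of 0.05. The 92 higher genes lie to the right and the 38 lower genes to the left of the genes not called (grey).

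The called genes stood away from the solvent level mostly with fenbuconazole. Over the 130 genes the median distance from the DMSO mean was 0.55 with fenbuconazole and 0.09 with 2,4-D (log2), and in 124 of them the fenbuconazole mean lay farther out. Tested against DMSO itself, fenbuconazole at 10 µM had 87 genes higher (0.44%) and 43 lower (0.217%). Of the 92 higher genes of the comparison with 2,4-D, 66 were also called in that test, and of the 38 lower genes 17. In the same test 2,4-D at 10 µM had 0 called genes (0% of those tested) by limma. Of 19774 genes, 1316 had an unadjusted limma p under 0.05. Such a cut alone passes a share of about 0.05 where nothing differs. The smallest adjusted p was 0.0897. That smallest value belonged to EPHA1, an ephrin receptor, which is named here after its values were seen. EPHA1 read -0.52, -0.15 and 0.12 in the fenbuconazole arrays and -1.05, -0.78 and -0.62 in the 2,4-D arrays, so it was higher with fenbuconazole only in the sense of lying nearer to DMSO. The 3 comparisons share their DMSO arrays, and the fenbuconazole and 2,4-D arrays enter more than one of them.

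The drug-metabolizing P450 genes showed the largest differences. CYP3A4, the main drug-oxidizing P450 of the liver, read 2.37, 2.07 and 2.25 in the fenbuconazole arrays of P1, P2 and P3, against 0.26, 0.36 and 0.36 in the 2,4-D arrays. Every fenbuconazole array was thus far above every 2,4-D array, and the arrays of each chemical lay close together. The difference was 1.90 ± 0.10 (SE), or 3.74-fold, with an adjusted p of 1.28e-22 in limma. CYP3A7, the fetal member of the family, differed by 1.46 ± 0.10 (adjusted p = 7.3e-18) and CYP3A43 by 1.32 ± 0.19 (adjusted p = 3.88e-06), whereas CYP3A5 differed by 0.21, with a 95% interval from -0.03 to 0.44, and was not called. The probe sets that represent CYP3A4, CYP3A7 and CYP3A43 are of the kind whose names mark probes shared between related sequences, so signal from one member can enter another. A CYP3A7 probe set without that mark differed by 0.74 ± 0.10 and was called higher. Another without it, at a DMSO level of 3.03, differed by -0.25 and was not called. Of 4 CYP3A43 probe sets 3 were called higher, and the one not called differed by 0.58. CYP3A4 had 4 probe sets, of which 3 were called higher, by 1.90, 1.99 and 2.38, and the fourth, near the bottom of the signal range, differed by 0.23.

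ZSCAN25, a zinc finger gene, ranked second among all genes, but on a single probe set. That probe set read 2.27, 2.26 and 2.50 with fenbuconazole and 0.15, 0.51 and 0.60 with 2,4-D, a difference of 1.93 ± 0.19 (adjusted p = 1.56e-11). The other 2 probe sets of the gene differed by 0.00 and 0.39 and were not called. In the RefSeq gene order ZSCAN25 lies beside the CYP3A cluster, with 1 pseudogene between it and CYP3A5. Whether the probe set reads ZSCAN25 or a transcript from the neighbouring cluster was not tested.

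CYP2B6, the classical CAR target, differed strongly but unevenly. The fenbuconazole arrays read 2.41 in P1, 0.67 in P2 and 2.27 in P3, and the 2,4-D arrays 0.20, -0.16 and -0.13. The P2 fenbuconazole array was still above all 2,4-D arrays, although it gave less than the other two. The difference was 1.81 ± 0.19, or 3.51-fold (adjusted p = 1.14e-10). The second CYP2B6 probe set was also called higher, at 0.61 ± 0.15.

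Of the 21 measured CAR and PXR targets, 9 were higher and 0 lower, and their median difference was 0.28, against 0.00 over all genes. Beside the 4 P450 genes above they were THRSP, a lipogenic nuclear protein, with 1.06 ± 0.14, the drug efflux pump ABCB1 with 0.53 ± 0.07, the secreted protein TSKU with 0.40 ± 0.09, the heme synthesis enzyme ALAS1 with 0.33 ± 0.07, and the conjugate exporter ABCC2 with 0.28 ± 0.07. Not every target was called. CYP2C8 differed by 0.34 (95% interval 0.13 to 0.56, adjusted p = 0.213) and the P450 reductase POR by 0.27 (0.08 to 0.46, adjusted p = 0.361), while GSTA1 differed by 0.00 (-0.13 to 0.14). Without the P code as a block 6 of the 21 were higher, since ABCC2, ALAS1 and TSKU were then not called. ABCC2 was not called without the P2 fenbuconazole array either, although 10 of the 21 were then higher. Against DMSO, 8 of the 21 were higher with fenbuconazole, and 0 of the 21 were called with 2,4-D.

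CYP1A1, which oxidizes polycyclic hydrocarbons, had the largest difference among the probe sets that represent genes, although one of the other CYP3A4 probe sets, at 2.38, lay above it. It read 2.11, 3.07 and 1.88 in the fenbuconazole arrays, against 0.25, 0.07 and 0.27 in the 2,4-D arrays, a difference of 2.15 ± 0.20 or 4.45-fold (adjusted p = 2.29e-12). The level in DMSO was 2.84 on the log2 scale, and 3.06 with 2,4-D, close to the array medians, and it was 5.19 with fenbuconazole. With no detection call, it cannot be told whether the signals in DMSO and 2,4-D were above background, so the fold of CYP1A1 is that of the array signals. CYP1A2, which oxidizes caffeine, read 1.49, 1.44 and 0.68 with fenbuconazole and 0.13, 0.46 and 0.02 with 2,4-D, a difference of 1.00 ± 0.21 (adjusted p = 0.00608). The call of CYP1A2 was lost without the P2 fenbuconazole array (0.90, adjusted p = 0.104) and without both P1 arrays (0.82, adjusted p = 0.217). The call was also lost without both P2 arrays and with only the 6 arrays of the comparison. The second CYP1A2 probe set differed by 0.22 and was not called. The other 8 of the 10 measured AHR targets were not called, among them CYP1B1 with 0.21 (95% interval 0.00 to 0.43), TIPARP with -0.05 (-0.22 to 0.12) and the receptor's repressor AHRR with -0.01 (-0.33 to 0.32). The median over the 10 was 0.10.

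**Figure D2:**
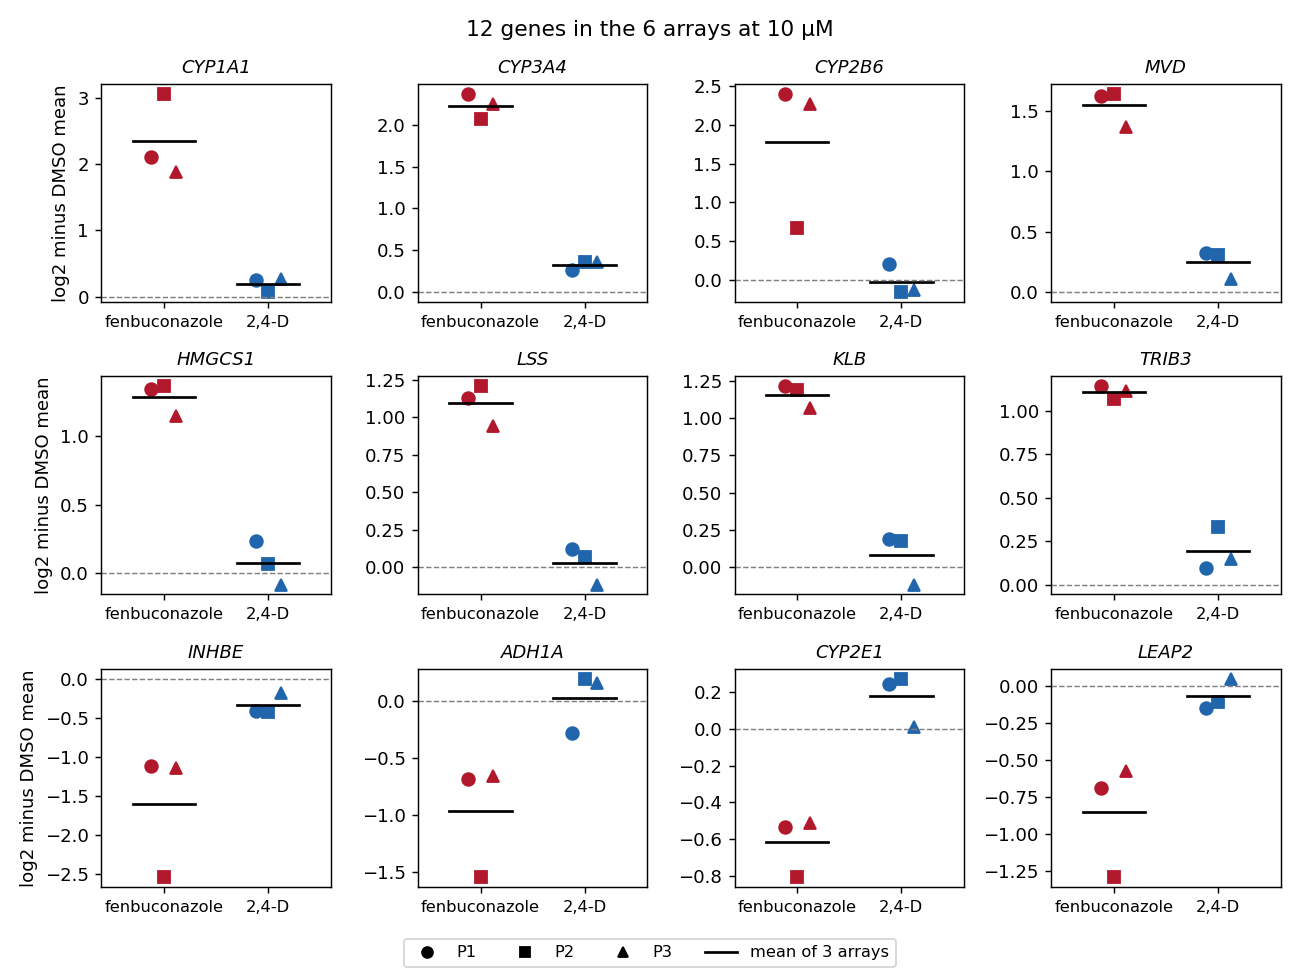
Log2 signal minus the DMSO mean (vertical) of 12 genes in the 3 fenbuconazole arrays (left, red) and the 3 2,4-D arrays (right, blue) at 10 µM, with circles, squares and triangles for P1, P2 and P3 and a line at the mean. The 8 genes of the upper rows lie higher and the 4 of the lowest row lie lower with fenbuconazole, and the P2 fenbuconazole array is the lowest for INHBE, ADH1A, CYP2E1 and LEAP2.

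Genes of cholesterol synthesis were higher in most of their steps. In the mevalonate pathway, which builds squalene from acetyl-CoA, 6 of 8 measured genes were higher and 0 lower, with a median difference of 0.91. In the steps from squalene to cholesterol 9 of 11 were higher and 0 lower, with a median of 0.78, against 0.00 over all genes and 0.465% of genes called higher. Against DMSO, fenbuconazole had the same counts, 6 of 8 and 9 of 11, and 2,4-D had 0 in both lists. Without the P2 fenbuconazole array the counts were 6 of 8 and 9 of 11 again.

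Along the pathway, the first enzymes join acetyl-CoA units. HMGCS1, which makes HMG-CoA, read 1.34, 1.36 and 1.14 in the fenbuconazole arrays, against 0.23, 0.07 and -0.08 in the 2,4-D arrays, a difference of 1.21 ± 0.08 or 2.31-fold (adjusted p = 7.7e-18). ACAT2, which makes acetoacetyl-CoA, differed by 1.06 ± 0.09. The spread among replicates was small beside these differences. MVK, which phosphorylates mevalonate, differed by 0.63 ± 0.11. MVD, the decarboxylase that follows, read 1.62, 1.64 and 1.37 with fenbuconazole and 0.32, 0.30 and 0.11 with 2,4-D, the largest difference of the pathway at 1.30 ± 0.11 (adjusted p = 1.86e-13). IDI1, which isomerizes the isoprenoid unit, and FDPS, which joins such units into a chain, differed by 0.89 ± 0.08 and 0.94 ± 0.08. PMVK, between MVK and MVD, differed by -0.01 (95% interval -0.19 to 0.17), and GGPS1, on a side branch to protein prenylation, by 0.08 (-0.10 to 0.27).

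Of the enzymes after squalene, the cyclase LSS, which makes lanosterol, read 1.13, 1.21 and 0.94 in the fenbuconazole arrays and 0.12, 0.07 and -0.12 in the 2,4-D arrays, a difference of 1.07 ± 0.07 (adjusted p = 3.72e-18). CYP51A1 itself, the human counterpart of the azole target, read 0.89, 0.92 and 0.66 with fenbuconazole and 0.16, 0.04 and -0.04 with 2,4-D. The difference of CYP51A1 was 0.77 ± 0.07 or 1.7-fold (adjusted p = 8.32e-12), close to that of its neighbours and not the largest among them. The squalene epoxidase SQLE differed by 0.80 ± 0.06, the sterol reductases TM7SF2 by 1.00 ± 0.08 and DHCR7 by 0.91 ± 0.07, and HSD17B7, NSDHL, EBP and SC5D by 0.50 to 0.84. ERG28, a scaffold of the demethylation complex that was in none of the lists and is named here after its values were seen, differed by 0.86 ± 0.08. MSMO1 (0.43, 95% interval 0.19 to 0.67, adjusted p = 0.112) and LBR (0.06, -0.18 to 0.31) were not called.

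**Figure D3:**
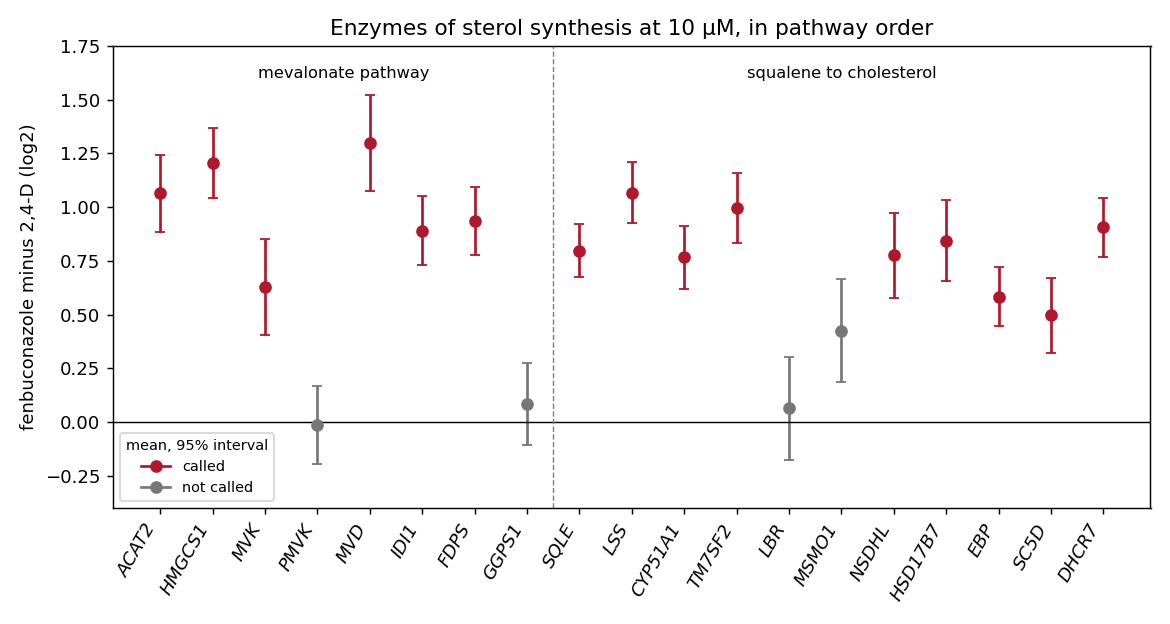
Difference between fenbuconazole and 2,4-D at 10 µM (log2, vertical) for the 19 measured enzymes of cholesterol synthesis in pathway order, with 95% intervals. The 15 called enzymes (red) lie between 0.50 and 1.30, and PMVK, GGPS1, LBR and MSMO1 (grey) were not called.

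Around the pathway, 3 of 21 measured genes of sterol sensing and transport were higher and 1 was lower, with a median of -0.05. TMEM97, a sterol-regulated membrane protein, read 1.12, 1.29 and 1.18 with fenbuconazole and 0.16, 0.20 and -0.05 with 2,4-D, a difference of 1.09 ± 0.08 (adjusted p = 2.83e-15). INSIG1, which holds the SREBP complex in the endoplasmic reticulum and is itself an SREBP target, differed by 0.76 ± 0.07, and the sterol carrier STARD4 by 0.64 ± 0.09. The sterol efflux half-transporter ABCG5 was lower by 0.49 ± 0.12 (adjusted p = 0.0425), although its fenbuconazole and 2,4-D arrays touched and it was not called without the P2 fenbuconazole array or without the block. The transcripts of the regulators themselves were not called, with 0.34 for SREBF2 (95% interval 0.09 to 0.59), -0.21 for SREBF1 (-0.42 to 0.00) and -0.12 for SCAP (-0.28 to 0.05).

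The promoters of the 3 sterol genes with the largest differences and of CYP1A1 are shown because these genes moved most in their groups. They were searched for short motifs of factors known to act on such genes. Each line gives the 250 bases before the gene's start in RefSeq GRCh38.p14, 5′ to 3′ on the gene's strand. In the first 3 the capitals mark the NF-Y box CCAAT on either strand, the site of a factor that works beside SREBP. In CYP1A1 they mark the AHR core GCGTG on either strand. The windows are chr16:88663092-88663341 (minus strand) for MVD, chr5:43313413-43313662 (minus) for HMGCS1, chr17:28318950-28319199 (plus) for TMEM97 and chr15:74725529-74725778 (minus) for CYP1A1.
MVD: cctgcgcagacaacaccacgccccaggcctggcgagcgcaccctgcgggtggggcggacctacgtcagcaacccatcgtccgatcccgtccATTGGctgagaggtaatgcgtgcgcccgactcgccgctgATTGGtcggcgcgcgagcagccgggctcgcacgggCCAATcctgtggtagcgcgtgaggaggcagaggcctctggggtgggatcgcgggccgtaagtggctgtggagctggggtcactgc
HMGCS1: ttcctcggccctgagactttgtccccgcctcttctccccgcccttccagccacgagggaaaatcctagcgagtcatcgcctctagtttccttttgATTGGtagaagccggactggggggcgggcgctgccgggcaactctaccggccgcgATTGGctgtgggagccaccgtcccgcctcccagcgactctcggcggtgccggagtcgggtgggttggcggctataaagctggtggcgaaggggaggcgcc
TMEM97: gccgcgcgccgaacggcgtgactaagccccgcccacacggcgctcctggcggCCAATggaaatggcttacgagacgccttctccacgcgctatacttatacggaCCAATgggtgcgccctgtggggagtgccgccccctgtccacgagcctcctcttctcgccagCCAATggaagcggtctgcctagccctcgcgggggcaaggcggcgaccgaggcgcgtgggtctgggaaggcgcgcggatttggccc
CYP1A1: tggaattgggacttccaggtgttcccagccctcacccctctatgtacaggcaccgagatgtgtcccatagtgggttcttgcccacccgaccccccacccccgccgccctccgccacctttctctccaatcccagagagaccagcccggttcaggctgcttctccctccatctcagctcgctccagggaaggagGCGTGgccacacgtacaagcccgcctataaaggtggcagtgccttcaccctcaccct

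MVD and TMEM97 held 3 CCAAT boxes each and HMGCS1 held 2. Of the 18 called higher genes of the sterol lists 16 had a promoter in the table, and 14 of these 16 held a CCAAT box, against 6 of 18 promoters of the sterol list genes that were not called and 33.0% of all 27305 promoters. The letters TCACNCCAC, a core of the sterol regulatory element, were in none of the 16 and in 0.875% of all promoters. GCGTG was in 6 of 8 promoters of the AHR targets, in 13 of the 16 promoters of the called sterol genes, in 9 of the 18 of the sterol genes not called and in 31.9% of all promoters. CYP1A1 held it once, and CYP1A2, the other called AHR target, had 0 matches. These are matches of letters in a fixed window, and binding was not measured.

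Lipid synthesis beyond sterols was higher too. Of 25 measured genes of fatty acid and triglyceride synthesis 7 were higher and 0 lower, with a median of 0.26. ACSS2, which turns acetate into acetyl-CoA, read 1.32, 1.32 and 1.06 in the fenbuconazole arrays and 0.20, 0.01 and -0.14 in the 2,4-D arrays, a difference of 1.21 ± 0.09 (adjusted p = 1.18e-16). ACLY, which takes acetyl-CoA from citrate, differed by 0.77 ± 0.07, the elongase ELOVL6 by 0.92 ± 0.09, the phosphatidate phosphatase LPIN1 by 0.66 ± 0.08, the fatty acid synthase FASN by 0.57 ± 0.11 and the elongase ELOVL5 by 0.40 ± 0.09. The seventh was THRSP, which the CAR and PXR list also holds. THRSP read 1.09, 0.19 and 0.72 with fenbuconazole and -0.34, -0.48 and -0.36 with 2,4-D, so the chemicals lay on opposite sides of the DMSO level. The desaturase SCD differed by 0.36 (95% interval 0.14 to 0.57, adjusted p = 0.176). In the opposite process, 1 of 22 genes of fatty acid oxidation was higher, the fatty acid carrier FABP1 with 0.45 ± 0.09, and 1 was lower, the pantetheinase VNN1 with -0.47 ± 0.11. VNN1 was not called without the P2 fenbuconazole array, and of the 25 synthesis genes 5 were then higher. The median of the 22 oxidation genes was -0.11, and 2 of them had a positive difference.

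Smaller groups held single strong genes. TRIB3, a pseudokinase induced by ATF4, read 1.14, 1.07 and 1.11 with fenbuconazole and 0.10, 0.33 and 0.14 with 2,4-D, a difference of 0.92 ± 0.08 (adjusted p = 2.26e-12). Of the 28 measured genes of the integrated stress response, 3 were higher, and the others were the cystine transporter SLC7A11 with 0.73 ± 0.10 and ATF4 itself with 0.31 ± 0.06, which was not called without the P2 fenbuconazole array or without the block. DDIT3, CHAC1 and DDIT4 were not called, with 0.01, 0.08 and 0.30. Of 16 chaperones of the endoplasmic reticulum 0 were called (median -0.06), against 0.465% of all genes called higher and 0.192% lower. KLB, the co-receptor of FGF19 and FGF21, differed by 1.08 ± 0.09, with 1.22, 1.19 and 1.07 in the fenbuconazole arrays and 0.19, 0.18 and -0.12 in the 2,4-D arrays. DIO1, a deiodinase of thyroid hormones, differed by 0.80 ± 0.12. Among 20 NRF2 targets 2 were higher, SLC7A11 and PGD, an enzyme of the pentose phosphate pathway (0.49 ± 0.08).

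The 12 largest higher genes also held some that are in none of these lists. OLFM3, an olfactomedin, read 1.83, 1.41 and 0.66 in the fenbuconazole arrays and 0.03, 0.01 and 0.08 in the 2,4-D arrays, a difference of 1.26 ± 0.18, with a level of 2.80 in DMSO, near the array median. PDE11A-AS1 differed by 1.24 ± 0.14 from a DMSO level of 2.39. HLMR1 differed by 1.37 ± 0.17 and read 1.14, 0.27 and 1.00 with fenbuconazole and -0.76, -0.58 and -0.37 with 2,4-D, again on both sides of DMSO. Array signals this near the median carry no detection call here, so whether OLFM3 and PDE11A-AS1 are expressed in solvent cells cannot be told.

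**Figure D4:**
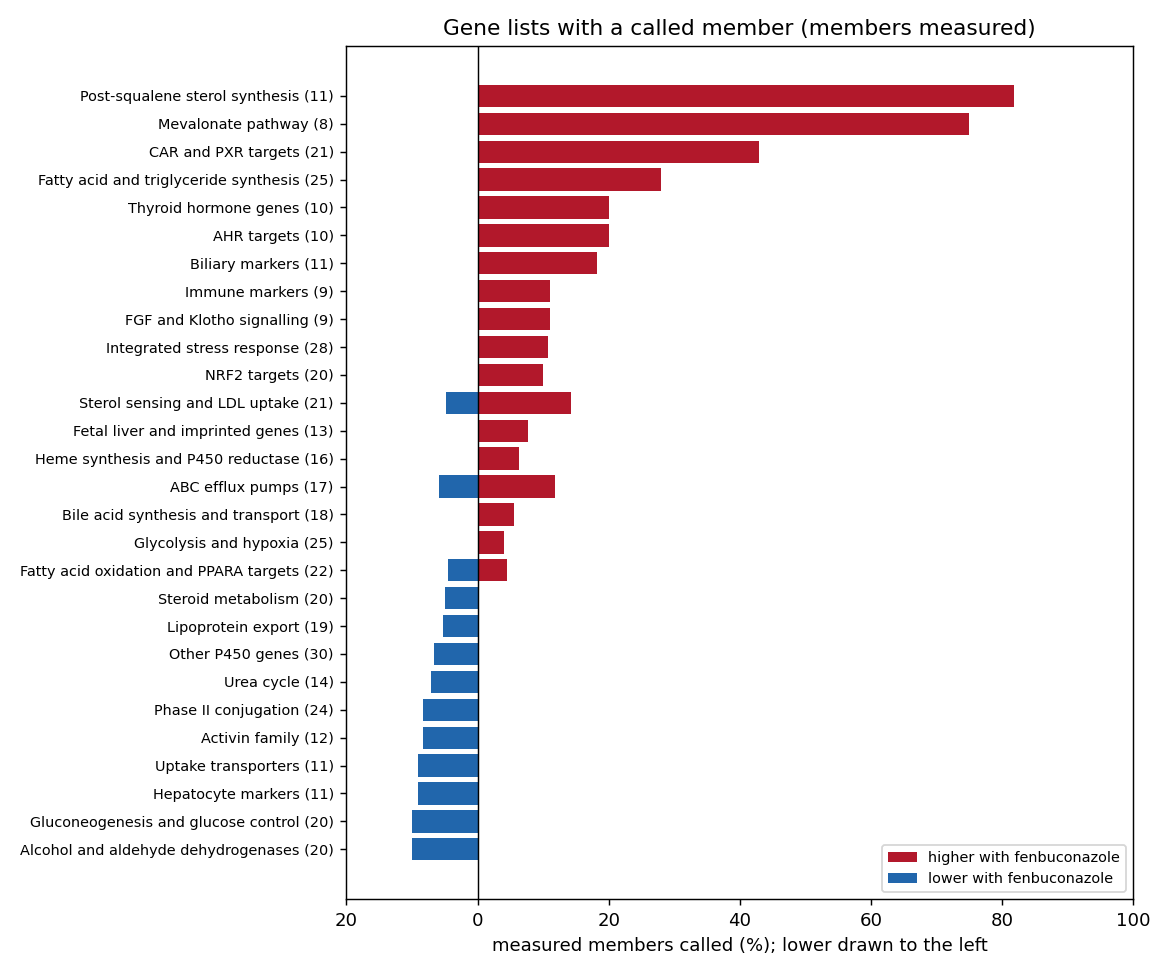
Share of the measured members of each gene list (in percent, number measured in brackets) with a called member: higher (red, to the right) or lower (blue, to the left) with fenbuconazole than with 2,4-D at 10 µM. The post-squalene list, with 9 of 11, and the mevalonate list, with 6 of 8, had the largest shares, and no list had more than 2 members called lower.

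The lower genes were fewer than the higher ones and their differences smaller. INHBE, a liver subunit of the activin family, had the largest, with -1.12, -2.54 and -1.15 in the fenbuconazole arrays and -0.42, -0.42 and -0.18 in the 2,4-D arrays. The groups did not overlap, and the P2 fenbuconazole array lay far below the other two. The difference was -1.26 ± 0.21 (adjusted p = 7.89e-05), and without the P2 fenbuconazole array it was -0.75 and not called. Without the P code as a block INHBE was not called either (adjusted p = 0.0565). The other 11 measured members of the activin family were not called. On the probe sets that represent them, INHBA with -0.38 (95% interval -0.70 to -0.05) and INHBC with 0.30 (-0.13 to 0.73) were the most distant. The other probe set of INHBC went the opposite way, with -0.56 ± 0.15 (adjusted p = 0.0726 in limma), and that of INHBA differed by 0.05.

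Among enzymes, the alcohol dehydrogenase ADH1A read -0.68, -1.54 and -0.66 with fenbuconazole and -0.28, 0.19 and 0.16 with 2,4-D, a difference of -0.98 ± 0.14 (adjusted p = 7.73e-07). CYP2E1, which oxidizes ethanol, read -0.53, -0.81 and -0.51 with fenbuconazole and 0.25, 0.27 and 0.01 with 2,4-D. The difference of CYP2E1 was -0.80 ± 0.08 (adjusted p = 1.2e-11), the smallest p among the lower genes, and 3 of its 4 probe sets were called lower. CYP4A11, a fatty acid hydroxylase and PPARA target, read -0.84, -1.59 and -0.89 with fenbuconazole and -0.30, -0.36 and -0.26 with 2,4-D, a difference of -0.80 ± 0.13, in 1 of 3 probe sets. KMO, of tryptophan breakdown, differed by -0.93 ± 0.15, the estrogen sulfotransferase SULT1E1 by -0.72 ± 0.16 and ADH4 by -0.57 ± 0.12. Of the 30 P450 genes outside the receptor lists, CYP2E1 and CYP4A11 were the 2 called.

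Among transporters and secreted proteins, TM6SF2, needed to load lipid onto lipoproteins, read -1.14, -1.37 and -0.85 with fenbuconazole and 0.06, -0.29 and -0.50 with 2,4-D, a difference of -0.87 ± 0.14 (adjusted p = 3e-05). LEAP2, a liver peptide that opposes ghrelin, read -0.69, -1.29 and -0.57 with fenbuconazole and -0.15, -0.11 and 0.05 with 2,4-D, a difference of -0.78 ± 0.10 (adjusted p = 1.19e-07). The plasma proteins SPP2 and AHSG were lower by 0.74 ± 0.17 and 0.57 ± 0.13, the glucose carrier SLC2A2 by 0.48 ± 0.08 and the glucose-regulated TXNIP by 0.50 ± 0.11. PPP2R2B (-0.66 ± 0.15), IL11RA (-0.65 ± 0.14) and TBX15 (-0.62 ± 0.14) complete the 12 largest. The other probe sets of PPP2R2B and IL11RA differed by -0.07 and -0.30 and were not called. SPP2, SULT1E1, PPP2R2B, IL11RA, TBX15, AHSG, ADH4 and TXNIP were not called without the P2 fenbuconazole array, and SPP2, AHSG and TXNIP were not called without the block.

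The P2 fenbuconazole array was the lowest of the 3 fenbuconazole arrays in 31 of the 38 lower genes, and the highest in 33 of the 92 higher genes. All 38 lower genes and all 92 higher genes kept their direction within each of the 3 P codes. They were called on the means of these same arrays, so this agreement follows largely from the selection. The median difference of the lower genes was -0.46 in P1, -0.64 in P2 and -0.34 in P3. Without that array 12 genes were called lower, of which 9 were among the 38, and 73 were called higher, of which 66 were among the 92. The mean of the 11 measured hepatocyte markers relative to DMSO was -0.03, -0.28 and -0.06 in the fenbuconazole arrays of P1, P2 and P3, and -0.11, -0.01 and 0.00 in the 2,4-D arrays. The part of this array's hepatocyte signal in the lower genes was not tested. In extracts of whole wells, fewer cells of a type and less RNA per cell cannot be told apart.

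Of the cell type lists, the hepatocyte markers had 2 of 11 and the mesenchymal markers 2 of 12 positive differences, with medians of -0.03 and -0.06, and the biliary markers had 6 of 11, with a median of 0.01. All 11 hepatocyte markers had DMSO levels between 6.65 and 13.3 (log2), with a median of 12.2, and 1 of them, AHSG, was called. Of 11 biliary markers, KRT19 stood at 9.98 in DMSO and KRT7 and EPCAM at 2.66 and 2.47, near the array medians. AP1M2, an epithelial sorting adaptor, was higher by 0.89 ± 0.10, and SPP1, osteopontin, by 0.46 ± 0.08. The biliary list averaged 0.21, 0.11 and 0.11 with fenbuconazole and 0.14, 0.03 and 0.02 with 2,4-D. CD14, which hepatocytes also express, was the 1 called gene of 9 immune markers (0.52 ± 0.10), and it read 0.47, 0.00 and 0.36 with fenbuconazole and -0.04, -0.28 and -0.41 with 2,4-D. None of 12 mesenchymal and 9 endothelial markers was called, and the endothelial list had a median DMSO level of 2.81. Over all genes 0.465% were called higher and 0.192% lower, so lists this short hold few or 0 calls at that share.

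Several responses that foreign chemicals can raise were not seen as called genes. Among p53 targets (18 measured), cell cycle genes (28), heat shock genes (14), metallothioneins (7), NF-kB and cytokine genes (17), interferon genes (15), immediate early genes (19), oxidative phosphorylation (21) and ribosomal proteins (14), limma called 0 genes, and the medians lay between -0.05 and 0.09. The acute phase genes (15) and the complement and coagulation genes (29) also had 0 called, with medians of -0.11 and -0.09, and 2 of 15 and 6 of 29 positive differences. Over all genes 0.465% were called higher and 0.192% lower, so lists this short hold few or 0 calls at that share. A missed threshold does not show that these genes were alike.

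The differences appeared near the top of the concentration range. At 3 µM, 2 genes were called (0.0101% of those tested), CYP2B6 with 1.70 ± 0.19 (adjusted p = 2.28e-08) and CYP3A4 with 0.71 ± 0.10 (adjusted p = 2.78e-05), and without the block 1 gene was called. At 1 µM CYP2B6 differed by 0.32 and CYP3A4 by 0.03, and neither was called. The one other call below 10 µM was TEK, an endothelial receptor with a DMSO level of 2.81, at 0.03 µM (0.84 ± 0.13, adjusted p = 0.00217), which at 10 µM differed by 0.31 and was not called. The change of the difference between 3 and 10 µM, tested as an interaction, passed in 36 genes (0.182%), of which 33 became more positive and 3 more negative.

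The steps had different sizes for different groups. CYP1A1 differed by -0.09 ± 0.20 at 3 µM and by 2.15 at 10 µM, a change of 2.25 ± 0.28 (adjusted p = 3.38e-07). For CYP2B6 the change was 0.11 ± 0.26 (adjusted p = 0.9999), so most of its mean difference at 10 µM was already there at 3 µM. That 10 µM mean includes the low P2 fenbuconazole array, at 0.67 against 2.41 in P1 and 2.27 in P3. For CYP3A4 the change was 1.19 ± 0.14 (adjusted p = 9.49e-08). The sterol genes were low at 3 µM, with 0.06 for MVD, 0.31 for HMGCS1, 0.22 for LSS and 0.27 for CYP51A1, none called, and they changed by 1.24 ± 0.16, 0.89 ± 0.11, 0.85 ± 0.10 and 0.49 ± 0.10. Of the mevalonate list 5 of 8 and of the post-squalene list 8 of 11 passed the test of the change. CYP2E1 (-0.65 ± 0.11), LEAP2 (-0.66 ± 0.14) and ADH1A (-0.85 ± 0.19) were the 3 genes with a more negative difference at 10 µM, and INHBE, with -1.20 ± 0.30, did not pass (adjusted p = 0.0996).

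**Figure D5:**
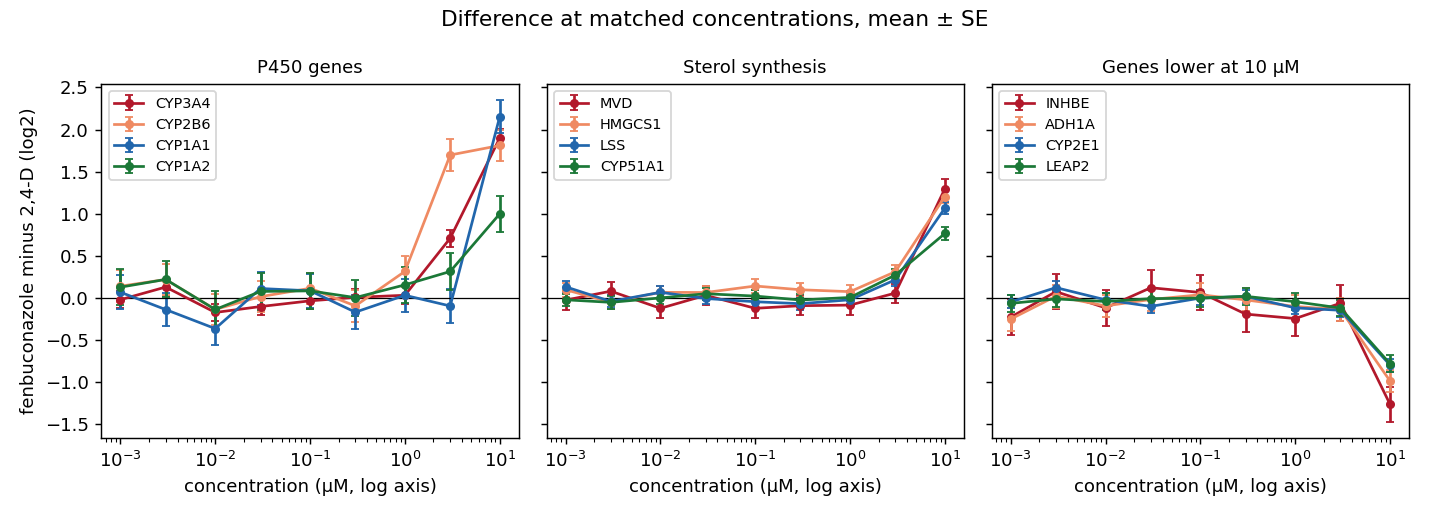
Difference between fenbuconazole and 2,4-D (log2, mean ± SE, vertical) at the 9 matched concentrations (µM, log axis) for 4 P450 genes, 4 sterol genes and 4 genes lower at 10 µM. CYP2B6 reached 1.70 at 3 µM, whereas CYP1A1 and the sterol genes stood at -0.09 to 0.31 there.

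Imazalil, the other azole, was set beside fenbuconazole at 10 µM in the same fit, in which 118 genes differed (0.597%). Fenbuconazole carries a triazole ring and imazalil an imidazole ring. CYP1A1 was lower with fenbuconazole by 3.06 ± 0.20 (adjusted p = 1.47e-17) and CYP2B6 by 1.55 ± 0.19 (adjusted p = 3.26e-08), while HMGCS1 was higher by 1.08 ± 0.08 (adjusted p = 5.29e-15) and CYP51A1 by 0.61 ± 0.07 (adjusted p = 2.41e-08). KLB differed by 0.11 ± 0.09 and INHBE by -0.08 ± 0.21, and neither was called.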

How the data were processed

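RNA of HepaRG cells was measured on HT HG-U133+ PM arrays (Affymetrix). The authors deposited log2 values of 54715 probe sets. Their processing notes name RMA and Partek, with versions not given in the sources used here. Each chemical was normalized on its own, and the 3 DMSO arrays entered every run. RMA forces one distribution of signals within each of the 3 sets, so signal levels were compared only after the DMSO mean of the own set was subtracted. There is no read depth, and the number of arrays (3 per group) limits the precision. All 90 columns belonged to a sample.

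limma 3.58.1 (R 4.3.3) fitted 27 group means and the P code as a block to the 81 treated columns, with eBayes and Benjamini-Hochberg adjustment over all probe sets. Each chemical was tested against DMSO within its 30 columns. A gene stood for its single-symbol probe set of highest mean over the 54 columns of both chemicals. Of the probe sets 40920 had 1 symbol, 864 several and 12931 none listed. The scripts were tested on simulated data. The P code was taken from the sample labels.

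Named genes were the 12 largest higher and the 12 largest lower called genes with groups that did not overlap, up to 4 members of each of 45 gene lists by adjusted p, all members of the sterol, CAR and PXR, AHR and activin lists, the 10 genes with the strongest change between 3 and 10 µM, and genes called at 3 µM or lower. The genes and lists were chosen with earlier results of these data known. Alternatives covered the block, the arrays fitted, the DMSO subtraction, centring, a level filter, eBayes options, the summary of probe sets and leaving out arrays.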

Additional observations from a re-analysis of the deposited data

Results flagged for a closer look

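The difference between fenbuconazole and 2,4-D was not the same at 3 and 10 µM in 36 genes, by an interaction contrast in limma adjusted over all probe sets. CYP2B6, with differences of 1.70 at 3 µM and 1.81 at 10 µM, was not among the 36, while CYP3A4, with 0.71 and 1.90, was. The P2 fenbuconazole array at 10 µM read 0.67 for CYP2B6, against 2.41 in P1 and 2.27 in P3. Groups of 3 arrays are too small for a test of single outlying arrays.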

How the results depend on the processing

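Among the 69 called genes that were followed, 0 changed direction under the 14 alternatives, of which the level filter left 68 to test. These genes were selected by a call on the same arrays, so their kept direction is no independent support. Calls were lost in 63 of the 69 with only the 6 arrays of the comparison, and in 10 without the block. Without both P1 arrays 12 were lost, without both P2 arrays 17, without both P3 arrays 7, and without the P2 fenbuconazole array alone 16. With only the 6 arrays of the comparison and their block, 6 genes were higher and 0 lower by limma. There 701 of 19774 genes had an unadjusted limma p under 0.05, in either direction, against 1613 in the main fit. Few residual degrees of freedom remain in the fit of the 6 arrays, and the cause of the loss was not tested. Without the replicate block 73 genes were higher and 24 lower at 10 µM, 1 gene was called at 3 µM, 31 changed between 3 and 10 µM, and 98 were called for fenbuconazole against DMSO. The 3 pairs of 10 µM arrays with one P code had deviations from their group means that correlated at -0.17, -0.13 and 0.19. Fenbuconazole and 2,4-D arrays of different codes at 10 µM correlated at -0.17 to 0.27. The mean over all treated columns was 0.10 within a code and -0.05 between codes. Immediate early genes averaged 0.61, -0.29 and -0.17 over DMSO in the fenbuconazole arrays of P1 to P3 and 0.58, -0.24 and -0.35 in the 2,4-D arrays. Whether the codes pair the arrays is thus not settled. Without the DMSO subtraction 260 genes were lower, with probe sets above the median level alone 65, and with the mean of all probe sets of a gene 73. For these 3 settings the cause was not tested. Leaving out arrays gave 68 to 79 higher and 12 to 38 lower genes, and 64 to 130 called for fenbuconazole against DMSO, with the fewest lower genes (12) without the P2 fenbuconazole array alone, an alternative chosen after seeing the data, and 17 without both P2 arrays. Against DMSO, 2,4-D had 0 called genes under every alternative run, by limma. In the fit with the block 1316 of 19774 genes had an unadjusted limma p under 0.05.

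With 3 arrays a group, differences that miss the threshold can still be real, and probe sets of low signal have no detection call.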
